A study of Homo sapiens with 6 samples.

Results

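Chromosome 11 carried 625 of the 11874 Brpf2 peaks that ChIP-seq (chromatin immunoprecipitation with sequencing) gave in RKO cells, a long-established line from a human colon carcinoma. The members are all peaks that the authors' list places on chromosome 11, in coordinates of the genome build hg18. All 6 samples of the series are RKO cells in normal growth with no treatment, and each used a different antibody: against Brpf2, the proteins ING2 and ING5, the mark H3K4me3, total H3, or rabbit IgG as a control. Only the Brpf2 peak list was examined, and the other 5 libraries were not used here. There is 1 library and no replicate, so no test between samples was made, and every interval below covers counting error within this list, in which neighbouring peaks are not independent. Depth is unknown, because the list gives no read counts.

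Brpf2, also called BRD1, is a scaffold protein with PHD fingers, a bromodomain and a PWWP domain. It joins a MYST family acetyltransferase to ING and EAF6 subunits, and the complex acetylates histone H3. The ING subunit carries a PHD finger that reads H3K4me3, a mark of active promoters. Chromosome 11 is known for its clusters of olfactory receptor genes, which encode odorant receptors of olfactory sensory neurons and are mostly silent in other tissues.

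The peaks were described in 4 stretches: the end of the short arm (0 to 4 Mb), the olfactory receptor rich stretch of the short arm (4 to 8 Mb), the olfactory receptor rich stretch around the centromere (48 to 60 Mb) and the gene-rich part of the long arm (60 to 77 Mb). These names come from what is known of the gene content of the chromosome and were not checked against an hg18 annotation, so no peak was assigned to a gene. No peak sequence is shown, because no hg18 sequence was used.

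Brpf2 peaks were concentrated in the gene-rich part of the long arm and at the end of the short arm. The gene-rich stretch held 223 peaks, or 13.1 per Mb (exact Poisson 95% interval 11.5 to 14.96). It made up 12.7% of the span between the first and last peaks and held 35.7% of the peaks. The short-arm end held 55 peaks, or 13.8 per Mb (10.4 to 17.9). The densities of these stretches had a ratio of 1.05 (exact conditional 95% interval 0.766 to 1.41), an interval that spans 1 and leaves room for a difference in either direction.

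The olfactory stretches held few peaks. The stretch of the short arm had 15, or 3.75 per Mb (2.10 to 6.19), and the stretch around the centromere had 24, or 2 per Mb (1.28 to 2.98). Peaks were 5.38 times as dense in the gene-rich stretch as in both olfactory stretches pooled (3.82 to 7.77), and 3.67 times as dense at the short-arm end as in the adjoining olfactory stretch (2.04 to 6.99). The rest of the chromosome, from 8 to 48 Mb and from 77 Mb to the last peak, held 308 peaks at 3.18 per Mb (2.84 to 3.56). The pooled olfactory stretches, at 2.44 per Mb, had a ratio to this rest of 0.766 (0.534 to 1.07). A lower density than in the rest was therefore not shown at these counts. Taken singly, the stretch around the centromere lay below the rest, and that of the short arm, at 3.75 per Mb, lay above it. The rest is mixed and itself holds long peak-free stretches, the longest of 6.80 Mb. It was also not checked to be free of olfactory receptor genes. In the gene order described below, a run of 11 of them, from OR10D3 to OR8A1, stands late on the long arm. The gene-rich stretch had 4.12 times the density of the rest (3.46 to 4.92) and the short-arm end 4.32 times (3.18 to 5.77).

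The length that reads can align to was not known, and the stretch around the centromere holds centromeric repeats. When the longest peak-free stretch was left out of the length, the density from 48 to 60 Mb was 7.61 per Mb and the ratio of the gene-rich stretch to the olfactory stretches was 2.41 (1.71 to 3.47). That stretch was chosen for having no peak, so with respect to that span 7.61 per Mb is an upper bound and 2.41 a lower one. A density of 7.61 per Mb would lie above the 3.18 per Mb of the rest, from whose length no gap was left out.

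**Figure D1:**
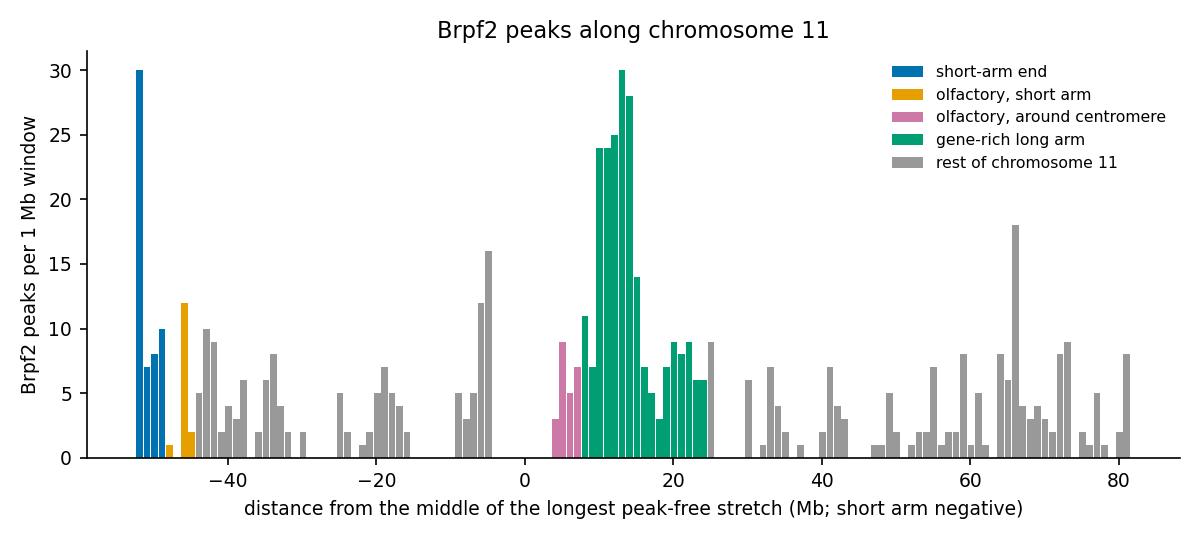
Bars give the number of Brpf2 peaks in each 1 Mb window of chromosome 11 (vertical axis), placed by peak midpoint, against the distance in Mb from the middle of the longest peak-free stretch (horizontal axis). The tallest bars, with 24 to 30 peaks, are a block of 5 in the gene-rich long arm and the first window of the short arm.

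Within the gene-rich stretch the peaks were not evenly spread. From 62 to 67 Mb, 5 neighbouring windows of 1 Mb held 24, 24, 25, 30 and 28 peaks, which is 131 peaks and 26.2 per Mb. The other 12 windows of the stretch held 92 peaks, or 7.67 per Mb, and ranged from 3 to 14. The block was singled out after its values were seen. All 17 windows of the stretch held at least 3 peaks, whereas 37 of the 134 windows of the chromosome held none (27.6%, exact 95% interval 20.2 to 36%).

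Most peaks of the short-arm end lay in its first window, which held 30, followed by 7, 8 and 10 in the windows up to 4 Mb. Its 30 peaks covered 95.7 kb and had a median score of 791, on the scale of the authors' peak caller, which is not stated. The first peak of the chromosome, from 195250 to 201476, had the highest score of this stretch (3100) and was 6.23 kb wide, and the next peak began 23.9 kb further on.

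The 5 windows with the most peaks were the first of the chromosome and those that begin at 65000001, 66000001, 64000001 and 62000001, with 30, 30, 28, 25 and 24 peaks. The window from 63000001 also held 24 and was ranked after the last of these by position only. Together with it these 6 windows, all those with 20 or more peaks, held 161 peaks, or 25.8% of the chromosome's. The window from 65000001 to 66000000 had the largest covered length of the 5, 120 kb, and held 6 peaks of 5 kb or more.

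**Figure D2:**
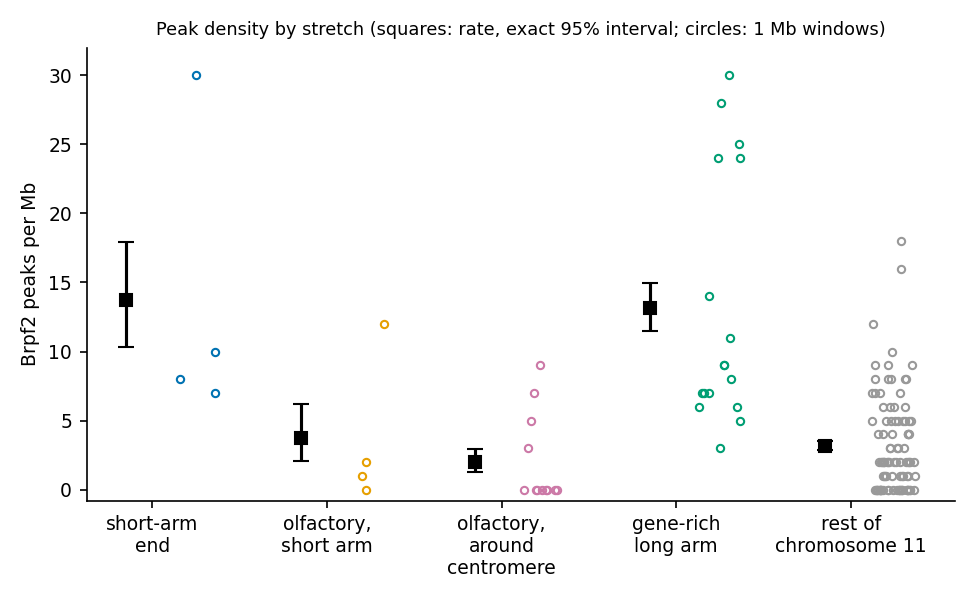
Squares give the Brpf2 peaks per Mb of each stretch (vertical axis) with exact Poisson 95% intervals, and circles give the number of peaks in each of its 1 Mb windows. The gene-rich long arm and the short-arm end lie at 13.1 and 13.8 per Mb, above the olfactory stretches at 3.75 and 2 and the rest at 3.18, and single windows vary widely within every stretch.

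In both olfactory stretches the peaks stood in short groups next to long empty spans. On the short arm, the first peak lay from 4071607 to 4074446 with a score of 846, and no peak followed for 2.14 Mb. Then 10 peaks from 6211301 to 6661678 followed each other with no gap over 200 kb. This group held the highest-scoring peak of the stretch, from 6580013 to 6585251 (score 1614, width 5.24 kb), and the next peak began 3.02 kb after it with a score of 1555. The 4 peaks after the group, up to 7966708, scored between 119 and 372. Window by window the stretch held 1, 0, 12 and 2 peaks, so 1 window carried most of it.

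Around the centromere, the longest peak-free stretch of the chromosome ran for 8.89 Mb from 47960411 to 56847647. All 24 peaks of the 48 to 60 Mb stretch lay after it, and the first 12 of them, up to 57287193, followed each other with no gap over 200 kb. Just before it, the windows from 46 and 47 Mb held 12 and 16 peaks, so the empty span had a crowded edge on the short-arm side. The highest-scoring peak of the stretch lay from 57037314 to 57040692 (score 3100, width 3.38 kb). The other 23 scored between 93.1 and 1694. The windows from 56 Mb onward held 3, 9, 5 and 7 peaks, and the 8 windows before them held none.

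The next longest peak-free stretches were 6.80 Mb from 36489095 to 43289684 and 4.53 Mb from 22808434 to 27340301, both on the short arm and outside the olfactory stretches. In all, 26 gaps between neighbouring peaks exceeded 1 Mb, and together they took up 62.4 Mb or 46.7% of the span. The median gap was 54.6 kb, with quartiles of 18.9 and 174 kb. It was 28.9 kb in the gene-rich stretch, 24.9 kb at the short-arm end, 76.1 kb from 4 to 8 Mb, 34.7 kb from 48 to 60 Mb, 108 kb from 8 to 48 Mb and 106 kb from 77 Mb onward. A neighbour within 10 kb, edge to edge, was found for 155 of the 625 peaks (24.8%, 21.5 to 28.4%), where the whole list had 23.0%. The share was 34.98% (28.7 to 41.6%) in the gene-rich stretch, 40% (27.0 to 54.1%) at the short-arm end and 35.9% (21.2 to 52.8%) in the pooled olfactory stretches, against 13.3% (9.72 to 17.6%) in the rest. The interval of the sparse olfactory stretches overlaps those of both dense stretches and lies above that of the rest. Outside the 4 stretches the most crowded window, from 118 Mb, held 18 peaks.

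Peaks of the gene-rich stretch were wider than those of the rest. The median width was 2535 bp (exact order-statistic 95% interval 2402 to 2689 bp) in the gene-rich stretch and 2204 bp (2044 to 2348 bp) in the rest. It was 2666 bp (2232 to 2984 bp) at the short-arm end, 1995 bp (1773 to 2498 bp) from 4 to 8 Mb and 2387 bp (2004 to 3139 bp) from 48 to 60 Mb. The last 3 intervals overlap that of the gene-rich stretch. Peaks under 2 kb made up 24.7% (19.2 to 30.9%) of the gene-rich stretch and 42.9% (37.3 to 48.6%) of the rest. Their share was 34.7% on chromosome 11 as a whole and 35.5% on the other autosomes.

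The widest peaks of the chromosome lay close together. The 5 widest all fell within 505 kb of the gene-rich stretch, a span that held 20 peaks. The widest, from 65431343 to 65446603 (15.3 kb), was the eighth widest of the whole list, and it was separated by 2.88 kb from the next widest, from 65414093 to 65428464 (14.4 kb). The others lay from 64941998 to 64952987 (10.99 kb), from 65020623 to 65030148 (9.53 kb) and from 65092824 to 65102067 (9.24 kb). All had a score of 3100 except the last, which scored 1991. Of the chromosome's 625 peaks, 29 (4.64%) were 5 kb or wider, where the whole list had 4.55%. In the gene-rich stretch there were 16 of 223 (7.17%, 4.16 to 11.4%) and outside it 13 of 402 (3.23%, 1.73 to 5.47%), shares whose intervals overlap. From 48 to 60 Mb none of the 24 peaks was that wide (0 to 14.2%). The 3 narrowest peaks, of 477, 627 and 630 bp, began at 99837232, 129809527 and 120738702, all in the rest of the long arm, and scored 50.8, 51.0 and 104.

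Peaks with the highest scores were found along the whole chromosome. The score reached 3100 in 47 of the 625 peaks (7.52%, 5.58 to 9.87%), where the whole list had 8.27%. Exactly 3100 is the most frequent score of the list, and it was given to 41 of these 47, so these peaks cannot be ranked among themselves. By stretch the share was 7.17% (4.16 to 11.4%) in the gene-rich stretch, 7.27% (2.02 to 17.6%) at the short-arm end, 2.56% (0.0649 to 13.5%) in the pooled olfactory stretches, with 1 peak of 39, and 8.44% (5.59 to 12.1%) in the rest. Of the 5 highest scores as deposited, only the peak from 66139053 to 66143882 (3163) lay in the gene-rich stretch. The others began at 9362223 (3205), 10279939 (3199), 35595319 (3161) and 82544351 (3147), all outside the 4 stretches. The windows that hold them had 10, 9, 4 and 6 peaks, against 28 in the window of the gene-rich peak. The peak at 35595319 stood 476 kb from the peak before it. Whether a score above 3100 marks a stronger peak than 3100 itself is not known, because the scale is not stated. These 5 peaks are therefore the highest as deposited and are not known to be the strongest.

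Median scores were 721 (619 to 857) in the gene-rich stretch, 717 (449 to 1013) at the short-arm end, 341 (142 to 1057) from 4 to 8 Mb, 598 (381 to 876) from 48 to 60 Mb and 518 (453 to 601) in the rest. The gene-rich stretch and the rest had intervals that do not overlap, but the gene-rich peaks were also wider. Within classes of width they were set against all other chromosome 11 peaks, not the rest alone, and the order of the medians varied. For widths of 3 to 5 kb the median score was 1283 (994 to 1514) for 56 peaks in the gene-rich stretch and 1781 (1340 to 2166) for 77 peaks elsewhere on chromosome 11, intervals that overlap. In this class 4 of the 56 peaks (7.14%, 1.98 to 17.3%) and 17 of the 77 (22.1%, 13.4 to 33.0%) scored at least 3100. Under 2 kb the medians were 209 and 214, and from 2 to 3 kb they were 693 and 652. At 5 kb or more both medians were 3100. For the 15 peaks from 4 to 8 Mb, the interval of the median score overlaps those of the other stretches and of the rest.

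**Figure D3:**
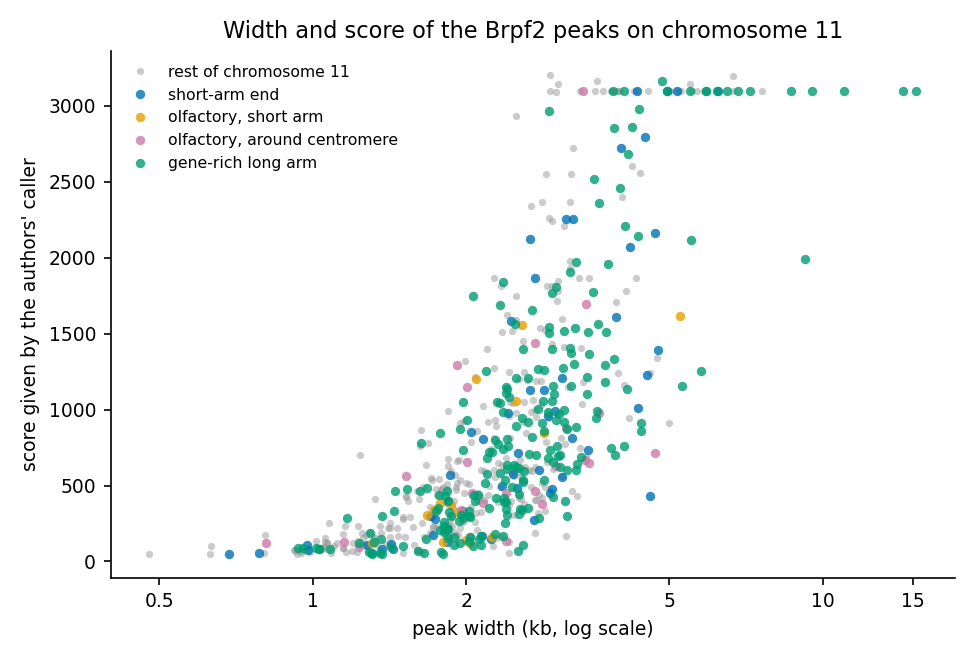
Each point is a Brpf2 peak of chromosome 11, with its width in kb on a log scale (horizontal axis) and the score of the authors' caller (vertical axis), coloured by stretch. Peaks of 5 kb or more mostly sit at a score of 3100, and the peaks of the olfactory stretches lie below it except for 1.

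Against the other 21 autosomes, with 10888 peaks, chromosome 11 lay inside the range of single chromosomes in density, width and score. It had 4.68 peaks per Mb between its first and last peaks (4.32 to 5.06), against 4.13 (4.05 to 4.20) for the others pooled, a ratio of 1.13 (1.04 to 1.23), and 8 autosomes were denser. The median width was 2388 bp (2299 to 2470 bp) against 2350 bp (2327 to 2371 bp). The median score was 601 (536 to 666) against 631 (613 to 652), and 16 autosomes had a higher one. The share of empty windows was 27.6% (20.2 to 36%) against 27.2% (25.5 to 29.0%). Densities and empty windows both include peak-free spans of unlike length, and the length that reads can align to was not known. The longest such span was 8.89 Mb on chromosome 11, and on the others it ranged from 2.58 Mb (chromosome 20) to 21.8 Mb (chromosome 1).

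Shares of high scores were set beside those of the other autosomes within classes of width. Of peaks of 5 kb or more, 24 of 29 scored at least 3100 (82.8%, 64.2 to 94.2%), against 73.7% (69.6 to 77.5%) on the other autosomes. For widths of 3 to 5 kb this was 15.8% (10.05 to 23.1%), against 19.9% (18.4 to 21.5%). The median score of such peaks was 1411 (1241 to 1781) on chromosome 11 and 1746 (1684 to 1811) elsewhere, intervals that overlap. Of the 217 peaks under 2 kb none scored as high (0 to 1.69%), and on the other autosomes it was 0 of 3860 (0 to 0.0955%).

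The crowding of peaks into few windows was among the stronger ones of the autosomes, as a description without a test. The densest 13 windows, a share of 10% rounded to whole windows, held 40.6% of the peaks of chromosome 11. The same share for the other autosomes ranged from 21.6% (chromosome 19) to 42.6% (chromosome 6), with a median of 36.2%, and 3 of them exceeded chromosome 11. The first window, with 30 peaks, was exceeded among the first windows of the other autosomes by chromosome 16 alone, which had 33. In the first 4 Mb, chromosomes 1, 16 and 19 had more than the 55 peaks of chromosome 11, with 58, 108 and 103. Chromosomes 13, 14, 15, 21 and 22, which are acrocentric, with short arms made up of repeats, had none there.

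The gene-rich stretch was also set against equally long runs elsewhere. The most peaks that any 17 neighbouring windows held was 224 on chromosome 11, in the run from 59 to 76 Mb, which is the gene-rich stretch moved by 1 window. The most on another autosome was 320 on chromosome 19, followed by 229 on chromosome 17 and 225 on chromosome 6, and the median of the other autosomes was 121. Runs on the other autosomes were chosen as the highest of each, so this ordering is a description.

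Per gene, chromosome 11 had fewer Brpf2 peaks than the other autosomes, with olfactory receptor genes counted or left out. The gene counts come from RefSeq on GRCh38.p14, and only the chromosome, order and type of each gene were used, not its position. RefSeq places 1301 protein-coding genes on chromosome 11, of which 171 (13.1%) are named as olfactory receptors. The count is of genes as listed, including OR9G9, OR8U8 and OR8U9, which stand at the start of the table's order apart from the other runs and whose place was not checked. The 171 genes are 43.6% of the 392 on the 24 chromosomes, and the next highest number is 61, on chromosome 1. With all genes there were 48.04 peaks per 100 protein-coding genes (44.3 to 52.0) on chromosome 11 and 61.1 (59.9 to 62.2) on the other autosomes, a ratio of 0.786 (0.724 to 0.853), and chromosome 21 alone was lower. With olfactory receptor genes left out, chromosome 11 had 55.3 (51.1 to 59.8) and the others 61.8 (60.7 to 63.0). The ratio was then 0.894 (0.824 to 0.969), still below 1, and chromosomes 4 and 21 were lower. Leaving these genes out kept every peak and removed 13.1% of the genes of chromosome 11 and 1.23% of those elsewhere. The rise of the ratio therefore follows from the gene counts alone and says nothing about where the peaks lie.

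**Figure D4:**
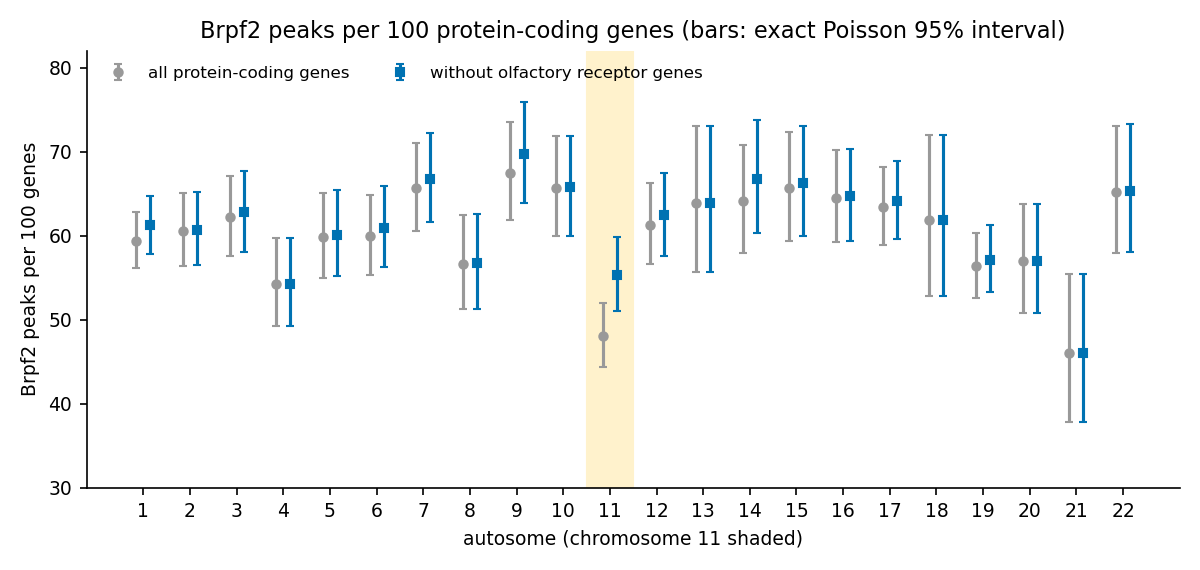
Points give the Brpf2 peaks per 100 protein-coding genes (vertical axis, which does not start at 0) of each autosome, with all genes (grey circles) and without olfactory receptor genes (blue squares), and bars give exact Poisson 95% intervals. Chromosome 11 moves from 48.04 to 55.3, the largest shift among the autosomes, and stays in the lower part of their range. The peaks are the same in both, so the shift comes from the gene counts alone.

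The gene order shows how the olfactory receptor genes are arranged. With no other protein-coding gene between them, 104 of the 171 stand in 6 runs of 10 or more. In order from the short-arm end, these run from OR51F1 to OR51V1 (16 genes), from OR52N4 to OR52W1 (18), from OR4A16 to OR5D16 (15), from OR5W2 to OR5AK2 (31), from OR9Q1 to OR5B21 (13) and from OR10D3 to OR8A1 (11). Non-olfactory genes stand between the runs, such as TRIM22 before OR52N4 and LPXN after OR5B21. Because order and peaks belong to different builds, which of the runs lie in the peak-free spans was not examined.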

How the data were processed

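Brpf2 ChIP-seq peaks from 1 RKO library were used. Per the submitters' processing notes, reads were handled with BWA, SAMtools and bedtools on hg18, with no version or role for any tool. MACS appears in the deposited peak names as the caller. For its version, settings and control the sources used here say nothing. Each peak's score is as deposited by the authors, from 50 to 3233.06 on an unstated scale, and was compared only within the list.

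Peaks were placed in 1 Mb windows and in stretches by midpoint, with positions counted from 1 (Python 3.11.15, pandas 2.3.3, scipy 1.17.1). Densities have exact Poisson intervals, ratios of densities exact conditional ones, shares Clopper-Pearson ones and medians exact order-statistic ones, all at 95%. Chromosome length is the span from first to last peak. No p-value was computed. The code was tested on simulated data.

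Members, stretches and rules were chosen with earlier results of these data known. The named peaks are the 5 highest scores, the 5 widest and 3 narrowest, the 5 fullest windows, the 3 longest gaps and the highest score of each stretch. Other peaks of the olfactory stretches, the block from 62 to 67 Mb, the windows beside gaps and the window from 118 Mb were named after their values were seen. The comparisons of width classes, of first windows, of runs of 17 windows and of crowded windows were also added then.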

Additional observations from a re-analysis of the deposited data

How the results depend on the processing

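No paired analysis was possible because the list comes from 1 library. Of 43 alternatives to 12 results, 28 stayed within the 95% interval of the reported value and 15 moved out of it, and the interval stayed above 1 in all 9 alternatives for the ratios of densities. Keeping only peaks at or above the median score of the whole list lowered the densities by construction, to 2.29 per Mb for the chromosome, 7.00 from 0 to 4 Mb, 1.25 from 4 to 8 Mb, 1.00 from 48 to 60 Mb and 7.53 from 60 to 77 Mb. It gave 40.3% empty windows, a median width of 2998 bp and 23.5 peaks per 100 protein-coding genes. Leaving out the longest peak-free stretch gave 7.61 per Mb from 48 to 60 Mb and a ratio of 2.41 for the gene-rich stretch over the olfactory stretches. Peaks of at least 2 kb had a median score of 978 and 11.5% of them scored at least 3100, while 0.96% of all chromosome 11 peaks scored above 3100. There were 55.3 peaks per 100 protein-coding genes without olfactory receptor genes and 19.7 per 100 annotated genes of any type. Joining peaks within 1 kb, placing peaks by start and shortening each stretch by 0.5 Mb at both ends moved none of the results they were run for out of its interval. The grid shifted by 0.5 Mb was run for the share of empty windows alone, which was then 27.4%, and not for the fullest windows or the crowding of windows. Depth is unknown, so how many weak peaks a deeper library would add in the olfactory stretches cannot be estimated.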

Other observations

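On chromosome 11, peaks in crowded windows scored higher than peaks in sparse ones. The 161 peaks in windows of 1 Mb with 20 or more peaks had a median score of 810 (exact order-statistic 95% interval 681 to 979) and a median width of 2659 bp. The 152 peaks in windows with 1 to 5 peaks had a median score of 473 (416 to 636) and a median width of 2159 bp. Leaving out any 1 of the 6 crowded windows gave crowded medians between 748 and 849. On the other autosomes pooled the order was the opposite, with 584 (530 to 640) in crowded windows and 663 (627 to 702) in sparse ones, intervals that overlap. That pool mixes chromosomes. Chromosome 19, whose median score of 403 was the lowest, had 15 of the 62 crowded windows in it.

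Higher scores in crowded windows were not particular to chromosome 11. Of the 9 autosomes with at least 50 peaks in each class, chromosome 11 had a difference of 337, after 662 on chromosome 9, and the other 8 split into 4 with higher and 4 with lower scores in crowded windows. With crowded windows counted from 10 peaks, the difference on chromosome 11 was 227, second to 271 on chromosome 20 among 16 autosomes, and of the other 15 autosomes 6 had higher and 9 had lower scores in crowded windows. Chromosome 19 was in neither of these comparisons. Score and width are related in this list, so the scores cannot be read apart from the wider peaks of the crowded windows.

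At a scale of 100 kb, the fullest windows of chromosome 11 held 8 peaks each. They began at 62100001 and 63700001, in the gene-rich stretch, and at 118400001, in the window with 18 peaks on the otherwise sparse distal long arm.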
